A study of Mus musculus with 6 samples.

Results

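Paneth cells sit at the base of the small intestinal crypts, release antimicrobial proteins into the lumen and send growth signals to the neighbouring stem cells. The 7 genes described here are Paneth cell genes outside the alpha-defensin family, chosen by name as the rows of the count table named Lyz1, Mptx2, Itln1, Ang4, Mmp7, Wnt3 and Habp2. All 7 were among the 54446 genes of the table and among the 15068 that passed the filter on low counts. Values of the 6 libraries are given below in the order of replicates 1, 2 and 3 within each genotype.

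Lyz1 encodes the lysozyme of Paneth granules, which cleaves bacterial cell walls. Mptx2 encodes a mucosal pentraxin, Itln1 a lectin that binds microbial sugars, and Ang4 an antimicrobial ribonuclease of the angiogenin family. Ang4 and Itln1 are also known for induction in type 2 immune responses, and Itln1 for expression in goblet cells. Mmp7 encodes matrilysin, the protease that activates mouse pro-alpha-defensins, Wnt3 a ligand by which Paneth cells maintain stem cells, and Habp2 a secreted serine protease that binds hyaluronan.

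The knockout mice were Prkci flox/flox Villin-CRE (3 libraries), in which an intestinal epithelial promoter drives the recombinase. The control mice were Prkci flox/flox without it (3 libraries). Both groups were co-housed and carried the floxed alleles of Prkci, which encodes atypical protein kinase C iota/lambda, both were 3 to 4 months old, and the control labels name no Cre. Epithelium was released with EDTA from segments of 10 cm that the series text calls jejunum-ileum and the sample titles call jejunum. Each library came from a separate animal number, and the question was what loss of the kinase does to transcripts of the epithelium.

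Prkci measured 21.5, 14.6 and 21.4 CPM (counts per 1000000 of the scaled library total) in the knockout libraries, against 44.6, 46.9 and 44.0 CPM in the control libraries. Total counts per library ran from 18972906 to 26687856 in knockouts and from 22453798 to 23008047 in controls. Vil1, the epithelial villin gene, was between 3122 and 3422 CPM in all 6 libraries. The labels call the cells enterocytes, and the 7 Paneth genes together took 0.0565% to 0.0921% of the counts in knockouts and 0.110% to 0.392% in controls. Vim, a mesenchymal gene, was at 7.74, 9.98 and 6.77 CPM in the knockout libraries and at 3.48 to 4.27 CPM in controls. It did not follow the listed fibroblast and smooth muscle genes, Vim included, which summed to 73.9, 13.5 and 71.1 CPM in the knockout libraries. The ribosomal RNA loci Gm26917 and Gm42418 took 4.89% to 5.91% of counts in knockouts and 2.16% to 2.91% in controls. Xist and Ddx3y counts gave a sex other than that of the series text for 3 libraries. By them, knockout replicates 2 and 3 and control replicate 3 were female. Without knockout replicate 1, edgeR called 2700 genes over the whole table, against 9 with all 6 libraries.

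A count for a gene of a family depends on how well its reads can be told from those of its closest copy, so the start of 2 such pairs is shown. Lyz1 lies next to Lyz2, the lysozyme gene of macrophages, and their coding sequences of 447 bases were identical at 95.1% of positions in GENCODE mouse release M21. The first 120 coding bases follow, with positions that differ between the pair in capitals.
Lyz1: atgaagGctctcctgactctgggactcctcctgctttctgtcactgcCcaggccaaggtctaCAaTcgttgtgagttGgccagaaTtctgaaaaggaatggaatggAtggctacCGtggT
Lyz2: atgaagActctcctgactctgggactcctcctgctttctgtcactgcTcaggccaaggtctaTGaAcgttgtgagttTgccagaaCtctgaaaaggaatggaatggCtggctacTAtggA
Mptx2 and its relative Mptx1, also on chromosome 1, were identical at 92.0% of 660 coding bases, but their first 120 bases differed at 1 position.
Mptx2: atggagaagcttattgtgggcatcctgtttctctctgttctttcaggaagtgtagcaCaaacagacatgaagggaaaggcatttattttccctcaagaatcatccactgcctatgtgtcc
Mptx1: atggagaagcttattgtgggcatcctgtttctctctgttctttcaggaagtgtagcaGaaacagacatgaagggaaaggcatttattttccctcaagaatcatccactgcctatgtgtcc

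Over whole transcripts, 16.1% of the 50-base windows of Lyz1 also occurred in Lyz2, and 18.0% of those of Mptx2 in Mptx1. The share was 7.36% for Mmp7 (with the antisense gene AV064505), 6.48% for Habp2 (with the overlapping Nrap), 4.70% for Ang4 (with Ang2 and Ang5) and 0.972% for Itln1 (with Gm9765). Wnt3 shared no such window with another gene. Gm9765, Ang2 and Ang5 had 0 counts in every library, and AV064505 at most 1. The split of reads within each pair is uncertain, because the rule by which shared reads were counted is not stated.

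Over all genes tested, 0 of the 7 Paneth genes passed the threshold of 0.05 for edgeR's adjusted p, where 0.0597% of genes (9 of 15068) passed it, 0.0531% as higher and 0.00664% as lower in knockouts. With the replicate block 0 of all genes passed, and without knockout replicate 1 Mptx2 and Ang4 passed as lower, in a fit that called 7.44% of all genes lower and 10.0% higher. DESeq2 called 1 of the 7, Mptx2, as lower, and 0 as higher, where it called 1.95% of all genes lower and 3.60% higher. Limma-voom called 0 of the 7, where it called 0.00664% of all genes lower and 0.0265% higher. At an unadjusted p under the threshold, Mptx2 and Itln1 were lower and none was higher, against 7.09% of all genes on the lower side and 9.32% on the higher. Mptx2 was the 1 gene of the 7 with every knockout below every control, a pattern held by 11.7% of all genes, and 0 of the 7 had every knockout above every control (10.0% of all genes). The log2 fold change (knockout over control) was negative for 5 of the 7 and positive for Mmp7 and Wnt3, with a median of −1.18, against 0.01 over all genes tested. Without control replicate 2 the median of the 7 was −0.013. Where a value is lower in a mixture of cell types, fewer Paneth cells and less transcript per Paneth cell cannot be told apart.

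**Figure D1:**
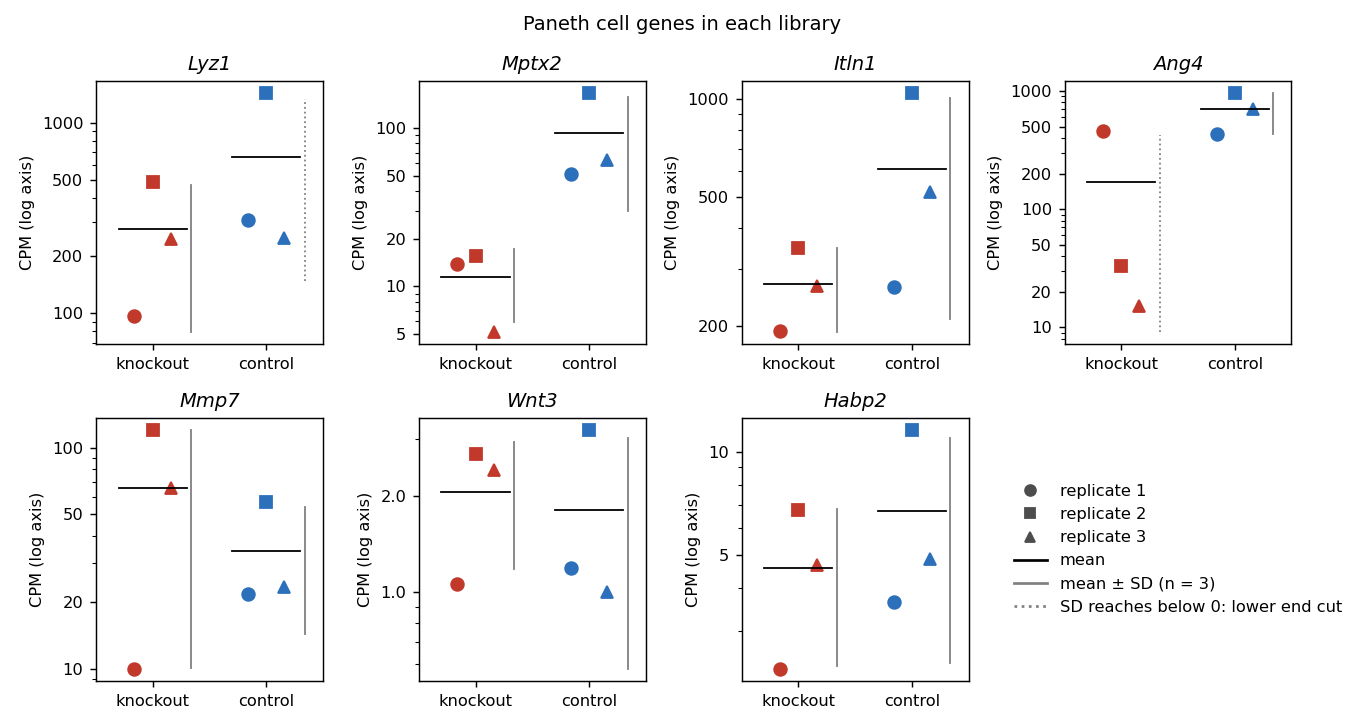
CPM of each Paneth gene (log axis) in knockout libraries (red) and control libraries (blue), with replicates 1, 2 and 3 as circle, square and triangle, the mean as a black line and the SD as a grey line. Mptx2 does not overlap between the genotypes, Ang4 is low in knockout replicates 2 and 3, and control replicate 2 is the highest library for 6 of the 7 genes.

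Lyz1 (ENSMUSG00000069515.6, chromosome 10, 117287797 to 117292868, minus strand, mm10) measured 96.4, 487 and 246 CPM in the knockout libraries. It measured 309, 1432 and 247 CPM in the control libraries. The groups overlapped, and control replicate 2 held 5.15 times the mean of the other controls. The mean was 276 ± 197 CPM in knockouts and 663 ± 667 CPM in controls (SD, n = 3 each). The log2 fold change was −1.26 (95% interval −3.15 to 0.63, edgeR adjusted p = 0.460). Without control replicate 2 it was −0.013. Within same-numbered libraries, which the titles do not call pairs, Lyz1 was lower in the knockout for replicates 1 and 2 and nearly equal for replicate 3. With the replicate block the value was −1.09 (SE 0.38), with an unadjusted edgeR p of 0.0366 and an adjusted p of 0.281.

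Lyz2 did not follow Lyz1 across the libraries. Its counts were 271, 97 and 214 in the knockout libraries, against 68, 109 and 88 in the control libraries. Knockout replicate 1 thus had the fewest counts of Lyz1 and the most of Lyz2, and control replicate 2, with 34368 counts of Lyz1, had 109 of Lyz2. The macrophage and dendritic genes, Lyz2 included, had a summed level of 171 to 227 CPM in knockouts and 126 to 180 CPM in controls, none of the 9 being at 0 in all libraries. Mertk supplied most of that sum, with 146 to 206 CPM in knockouts and 115 to 171 CPM in controls. All 8 of the genes tested had positive log2 fold changes, with a median of 1.45. EdgeR called 0, with 4 higher at an unadjusted p under the threshold, against 9.32% of all genes. DESeq2 called 2 higher, against 3.60% of all genes. The mean log2 level of these 8, relative to the controls, was 1.77, 0.67 and 1.01 in the knockout libraries, against −0.42, −0.09 and 0.51 in the control libraries. The part of these cells in the Lyz1 and Lyz2 values was not tested.

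Mptx2 (ENSMUSG00000079180.4, chromosome 1, 173274382 to 173277777, minus strand) had the most negative log2 fold change of the 7 with all libraries and genotype alone in the edgeR fit. Ang4 was more negative with limma-voom (−3.46, against −3.0 for Mptx2), with the replicate block (−3.81, against −2.98) and without knockout replicate 1 (−4.86, against −3.18). Mptx2 measured 13.8, 15.6 and 5.13 CPM in the knockout libraries, against 51.6, 167 and 62.5 CPM in the control libraries. The highest knockout was below the lowest control. The log2 fold change was −3.02 (SE 0.58, 95% interval −4.40 to −1.65), with an unadjusted edgeR p of 0.00118 and an adjusted p of 0.113. DESeq2 gave an adjusted p of 9.73e-07. By edgeR the adjusted p was 0.0199 without knockout replicate 1 (log2 fold change −3.18) and 0.412 without control replicate 2 (−2.31). With the replicate block it was 0.183, and the range over the 15 alternatives was 9.73e-07 to 0.412.

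Mptx1, named as a relative of Mptx2, was listed at 0 counts in knockout replicates 2 and 3. It had 151 counts in knockout replicate 1, against 408, 478 and 758 counts in the control libraries. A count of 0 allows up to 0.131 CPM in knockout replicate 2 and 0.120 CPM in knockout replicate 3, where 3 counts set the limit and only counting error is covered. In those same libraries Mptx2 had 359 and 128 counts, and none were counted under Mptx1. By edgeR the log2 fold change of Mptx1 had an adjusted p of 0.310.

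Itln1 (ENSMUSG00000038209.12, chromosome 1, 171518122 to 171535294, minus strand) measured 192, 348 and 265 CPM in the knockout libraries. It measured 263, 1044 and 518 CPM in the control libraries. The groups overlapped through control replicate 1. The mean was 269 ± 77.8 CPM in knockouts and 608.5 ± 398 CPM in controls (SD, n = 3 each). Itln1 had a log2 fold change of −1.18 (95% interval −2.30 to −0.06), with an unadjusted edgeR p of 0.0421 and an adjusted p of 0.284. Without control replicate 2 the value was −0.55. Itln1 was lower in the knockout of all 3 same-numbered pairs, and with the replicate block the value was −1.0 (SE 0.25), with an unadjusted edgeR p of 0.0108 and an adjusted p of 0.214.

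Ang4 (ENSMUSG00000060615.5, chromosome 14, 51763878 to 51773590, minus strand) split the knockouts. It measured 460, 33.0 and 15.1 CPM in the knockout libraries, against 434, 960 and 703 CPM in the control libraries. Knockout replicate 1 lay within the controls, while replicates 2 and 3 together averaged 24.1 CPM, 29.0-fold below the control mean. For Ang4 the log2 fold change was −2.05 (95% interval −4.77 to 0.68, edgeR adjusted p = 0.416). Without knockout replicate 1, Ang4 passed the threshold, with a log2 fold change of −4.86 and an edgeR adjusted p of 0.00169.

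The knockout libraries with little Ang4 were both female by Xist, and the one female control, replicate 3, had 703 CPM. With sex by Xist and Ddx3y as a covariate, the log2 fold change of Ang4 was −2.72 (edgeR adjusted p = 0.327). The unadjusted edgeR p was 0.0329, against 0.120 without the covariate. Tuft cell markers had the same split. The 5 tuft genes summed to 158, 19.4 and 25.1 CPM in the knockout libraries, against 184, 156 and 199 CPM in the control libraries, and Il25 was at 0 in knockout replicate 2. Without knockout replicate 1, edgeR called all 4 of the tuft genes tested as lower, in a fit that called 7.44% of all genes lower. Retnlb, a goblet cell product induced in type 2 responses, measured 12.1, 0.131 and 0.0400 CPM in the knockout libraries, against 5.59, 3.58 and 14.4 CPM in the control libraries. Muc2, another goblet gene, lacked this split, with 3368, 4013 and 3713 CPM in the knockout libraries. The same fit called 2 of the 8 goblet genes lower and 1 higher, against 7.44% and 10.0% of all genes. Itln1 lacked the split too, with 192 CPM in knockout replicate 1, against 348 and 265 CPM in the other knockouts. Sex entered only as that covariate, and the part of tuft cells in the Ang4 values was not tested.

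Mmp7 (ENSMUSG00000018623.9, chromosome 9, 7692090 to 7699585, plus strand) split the knockouts the other way. It measured 9.97, 120 and 65.6 CPM in the knockout libraries, against 21.9, 56.8 and 23.5 CPM in the control libraries. Knockout replicates 2 and 3 were above every control and knockout replicate 1 was below every control. Mmp7 had a log2 fold change of 0.94 (95% interval −0.91 to 2.79, edgeR adjusted p = 0.570). It was 1.45 without knockout replicate 1 (adjusted p = 0.0608), 0.18 without knockout replicate 2, and 0.05 with sex by Xist and Ddx3y as a covariate. The cycling genes summed to 168, 455 and 372 CPM in the knockout libraries, against 185, 302 and 195 CPM in the control libraries, and their part in the Mmp7 values was not tested.

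The upstream sequences of Ang4 and Mmp7 are shown because in knockout replicates 2 and 3 these genes lay on opposite sides of the controls. Each is the 150 bases before the RefSeq start site (build GRCm38.p6), 5′ to 3′ on the strand of the gene, with the AP-1 motif TGAGTCA, on either strand, in capitals. The Ang4 stretch is chr14:51773591-51773740 on the minus strand and the Mmp7 stretch chr9:7691940-7692089 on the plus strand.
Ang4: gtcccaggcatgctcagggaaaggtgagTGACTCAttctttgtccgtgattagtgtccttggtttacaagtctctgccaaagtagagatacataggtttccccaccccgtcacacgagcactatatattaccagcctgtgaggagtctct
Mmp7: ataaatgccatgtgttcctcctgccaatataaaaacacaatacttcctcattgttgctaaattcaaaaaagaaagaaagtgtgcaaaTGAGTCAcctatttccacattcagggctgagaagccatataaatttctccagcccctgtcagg

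Both held 1 match to TGAGTCA, at position −122 of Ang4 on the opposite strand and at position −63 of Mmp7, where −1 is the base before the start site. None of the other 5 genes held it in the 250 bases upstream, and 4.46% of 32851 such mouse windows did. None of the 7 held the TCF core TCAAAG (13.8% of all windows) or a STAT6 motif (5.85%), both strands searched. A match describes the letters of the window and names no factor bound there.

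The matrix metalloproteinase genes did not share one pattern. Of 23 Mmp genes in the table, Mmp7 included, 9 were tested. Log2 fold changes were positive for 7 and negative for 2, with a median of 1.17. EdgeR called 0, with 4 higher at an unadjusted p under the threshold, against 9.32% of all genes. DESeq2 called 3 higher, against 3.60% of all genes. Mmp15 had the highest mean CPM, with 139, 48.8 and 54.5 CPM in the knockout libraries, against 114, 119 and 132 CPM in the control libraries. Mmp14, which encodes a membrane-bound protease, measured 14.6, 27.2 and 26.0 CPM in knockouts, against 10.3, 8.21 and 10.4 CPM in controls (log2 fold change 1.24, edgeR adjusted p = 0.117). Mmp28 measured 11.2, 25.4 and 22.9 CPM in knockouts, against 11.3, 6.92 and 6.95 CPM in controls (log2 fold change 1.25, edgeR adjusted p = 0.174). Mmp14 was above the controls in all 3 knockouts, and Mmp15 below them in 2. Mmp28, like Mmp7, was above every control in knockout replicates 2 and 3. Fibroblast and smooth muscle genes summed to 73.9, 13.5 and 71.1 CPM in the knockout libraries, against 6.16, 7.88 and 19.3 CPM in the control libraries, and their part in the Mmp values was not tested.

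**Figure D2:**
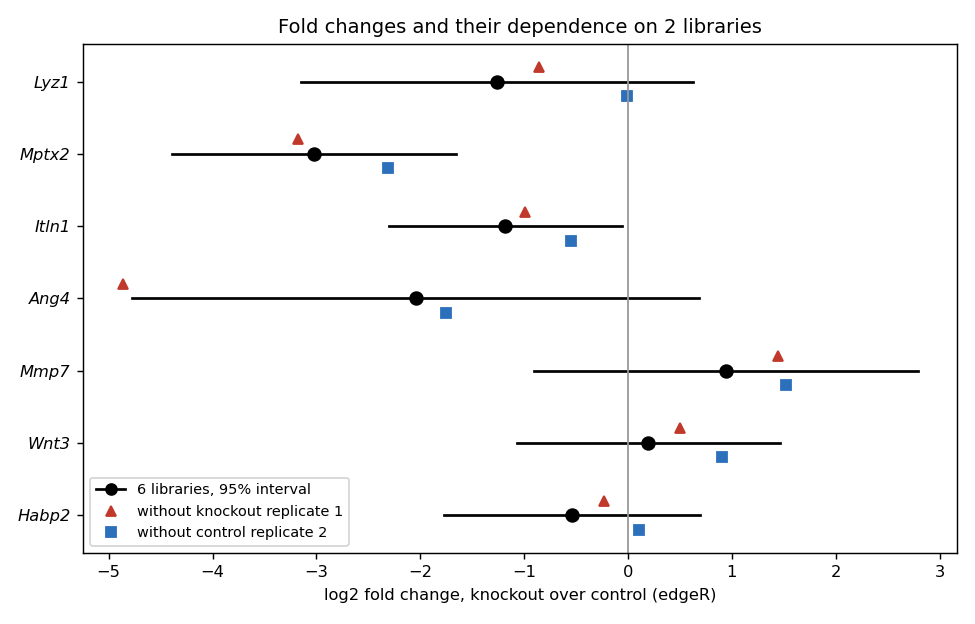
Log2 fold change of each Paneth gene, knockout over control, with its 95% interval from all 6 libraries (black) and its value without knockout replicate 1 (red triangles) and without control replicate 2 (blue squares). The Mptx2 values lie between −3.18 and −2.31, Ang4 is at −4.86 without knockout replicate 1 (−2.05 with all libraries), and Lyz1 is at −0.013 without control replicate 2 (−1.26 with all).

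Wnt3 (ENSMUSG00000000125.5, chromosome 11, 103774150 to 103817957, plus strand) had the lowest counts of the 7. There were 21, 62 and 60 counts in the knockout libraries, against 27, 77 and 24 counts in the control libraries. The mean was 2.06 ± 0.873 CPM in knockouts and 1.80 ± 1.22 CPM in controls (SD, n = 3 each), with full overlap. Its log2 fold change was 0.20 (95% interval −1.07 to 1.46, edgeR adjusted p = 0.877), an interval that holds changes of either sign.

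Of 17 listed niche signals and Wnt targets, 16 were tested and edgeR called 0. At an unadjusted p under the threshold 2 were higher and 1 lower, against 9.32% and 7.09% of all genes. DESeq2 called 1 higher, against 3.60% of all genes. Log2 fold changes were positive for 10 and negative for 6. Lgr5, the stem cell receptor for R-spondins, measured 2.23, 2.79 and 1.72 CPM in the knockout libraries, against 2.90, 9.71 and 4.52 CPM in the control libraries. Control replicate 2 was again the highest library, and the log2 fold change was −1.35 (edgeR adjusted p = 0.228). Dll4, a Notch ligand that Paneth cells present to stem cells, measured 13.7, 30.2 and 27.8 CPM in knockouts, against 13.6, 13.0 and 11.5 CPM in controls (log2 fold change 0.91, edgeR adjusted p = 0.203). The 2 listed genes of highest mean CPM, the Wnt co-receptor genes Lrp6 and Lrp5, had log2 fold changes of −0.19 and 0.10. Among 19 Wnt genes, 6 passed the filter and 6 had 0 counts in every library. EdgeR and DESeq2 each called 0 of the 6 tested. By edgeR 2 were higher and 0 lower at an unadjusted p under the threshold, against 9.32% and 7.09% of all genes.

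Habp2 (ENSMUSG00000025075.14, chromosome 19, 56287137 to 56320822, plus strand) varied with Lyz1 (r = 0.961 over the 6 libraries of both genotypes, as a description). It measured 2.33, 6.75 and 4.69 CPM in the knockout libraries, against 3.65, 11.6 and 4.86 CPM in the control libraries. In both genotypes replicate 2 was the highest and replicate 1 the lowest library for Habp2. The log2 fold change was −0.54 (95% interval −1.77 to 0.69, edgeR adjusted p = 0.626), and 0.11 without control replicate 2. Nrap, which overlaps the end of Habp2, had 47 to 64 counts in knockouts and 74 to 86 in controls.

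Divided by exon length, levels within the controls ran in the order Ang4 (986 ± 371), Itln1 (533 ± 349), Lyz1 (525 ± 528), Mptx2 (118 ± 79.9), Mmp7 (31.9 ± 18.4), Habp2 (2.10 ± 1.34) and Wnt3 (0.585 ± 0.398 RPKM, CPM per kilobase of exon, SD, n = 3). Itln1 and Lyz1, and Lyz1 and Mptx2, did not differ beyond the SD of Lyz1, and each of the other neighbours differed by more than either SD. In knockouts, Mmp7 averaged 61.2 ± 51.7 RPKM and Mptx2 14.5 ± 7.07 RPKM (SD, n = 3), a gap smaller than the SD of Mmp7.

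Each gene was also set against Lyz1 of the same library, a ratio chosen after the values were seen. Lyz1 itself ranged 5.80-fold among controls and 5.05-fold among knockouts. Mmp7 had 103, 247 and 267 counts per 1000 Lyz1 counts in the knockout libraries, against 70.8, 39.6 and 95.3 in the control libraries. By this ratio every knockout was above every control. In knockout replicate 1, though, Mmp7 and Lyz1 were each at their lowest level of the 6 libraries. As a share of all counts of the 7 genes, Mmp7 took 1.28%, 11.9% and 10.9% in the knockout libraries. The control libraries had 2.02%, 1.54% and 1.51%, so knockout replicate 1 was below every control on that measure. The exact two-sided permutation p on log2 ratios to Lyz1 was 0.1, the smallest that 3 against 3 allow. It was 0.3 after Benjamini-Hochberg adjustment over the 6 ratios tested. Such ratios were not formed for genes outside the list, so the share of all genes that separate this way is not known.

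Wnt3 also had every knockout above every control by its ratio to Lyz1, at low counts. It had 11.0, 5.55 and 9.78 counts per 1000 Lyz1 counts in knockouts, against 3.84, 2.24 and 4.07 in controls (exact permutation p = 0.1, adjusted p = 0.3). Mptx2 had 143, 32.1 and 20.9 per 1000 Lyz1 counts in knockouts, against 167, 116 and 253 in controls (exact permutation p = 0.2, adjusted p = 0.4). In knockout replicate 1 this ratio was within the controls, where Lyz1 itself was at its lowest level of the 6 libraries. As a share of all counts of the 7 genes, Mptx2 took 1.78%, 1.54% and 0.849% in the knockout libraries, against 4.76%, 4.53% and 4.01% in the control libraries, with no overlap. The Wnt3 share did not overlap either, and was higher in knockouts. It was 0.137%, 0.267% and 0.398% in the knockout libraries, against 0.110%, 0.0873% and 0.0644% in the control libraries. Such shares were not formed for genes outside the list.

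For Ang4 the knockouts lay on both sides of the controls. It had 4772 counts per 1000 Lyz1 counts in the first knockout but only 67.8 and 61.6 in the others, against 1403, 670 and 2848 in the control libraries (exact permutation p = 0.4, adjusted p = 0.48). Ang4 made up 59.3%, 3.25% and 2.51% of all counts of the 7 genes in the knockout libraries, against 40.0%, 26.1% and 45.1% in the control libraries. Knockout replicate 1 was above the controls and the other knockouts were below them. The ratios of Itln1 (exact permutation p = 1) and Habp2 (p = 0.3) overlapped between the genotypes.

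**Figure D3:**
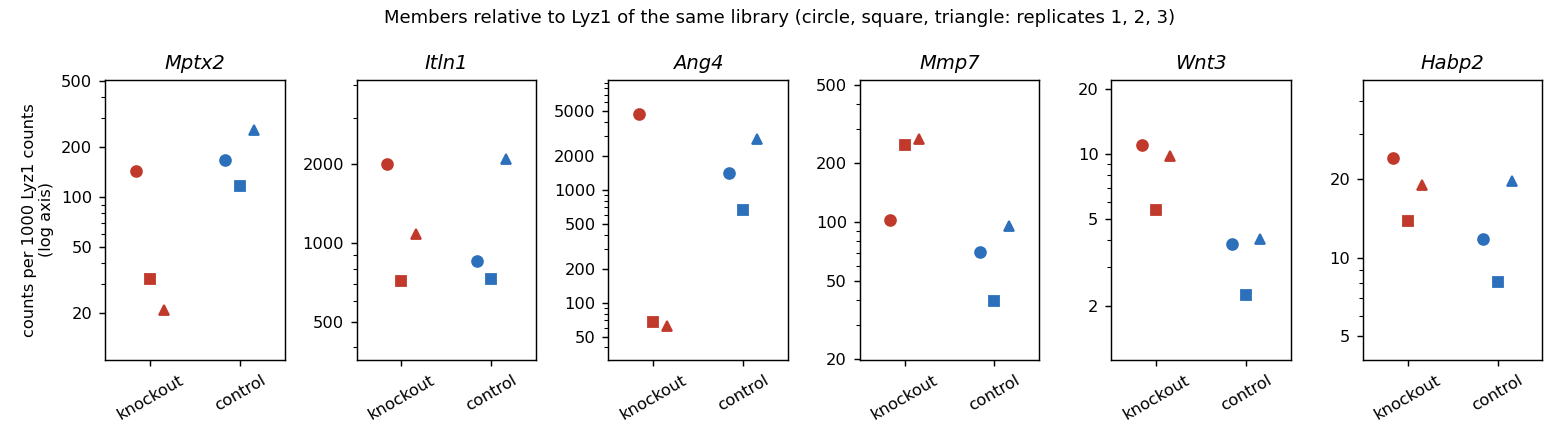
Counts of each of 6 Paneth genes per 1000 counts of Lyz1 in the same library (log axis), for knockouts (red) and controls (blue), with circle, square and triangle for replicates 1, 2 and 3. By this ratio Mmp7 and Wnt3 do not overlap between the genotypes, and Ang4 is at 67.8 and 61.6 in knockout replicates 2 and 3. Knockout replicate 1 has the lowest Lyz1 level of all libraries, and the share of all genes without overlap by this ratio is not known.

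Alpha-defensin genes, the other large group of Paneth products, had 39 rows, of which 16 were at 0 in every library and 11 were tested. All 11 log2 fold changes were negative, but single controls differed widely and not in one direction. Across the control libraries Defa21 measured 7.79, 0.0417 and 3.52 CPM, while Defa29 measured 17.5, 103 and 11.4 CPM. The genotypes overlapped for both. EdgeR called 0, with 6 lower at an unadjusted p under the threshold, against 7.09% of all genes. In 4 every knockout was below every control, a pattern held by 11.7% of all genes. DESeq2 called 2 lower, against 1.95% of all genes. Defa24, the highest by mean CPM, measured 199.5, 341 and 152 CPM in the knockout libraries, against 410.1, 1706 and 565 CPM in the control libraries. Defa30 measured 56.6, 50.5 and 17.0 CPM in the knockout libraries, against 146, 460.2 and 218 CPM in the control libraries. Both were lower in every knockout than in every control. Reads of these genes are hard to part from those of their close copies.

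Of the 9 other listed Paneth genes, edgeR called 0, with 4 lower at an unadjusted p under the threshold, against 7.09% of all genes. DESeq2 called 3 lower, against 1.95% of all genes. In 4 of the 9, Clps, AY761184, Kit and Cd24a, every knockout was below every control, a pattern held by 11.7% of all genes. By mean CPM the highest of the 9 were Pnliprp2, a lipase-related gene (log2 fold change −1.94, edgeR adjusted p = 0.355), and Spink4, a protease inhibitor gene (−0.35, adjusted p = 0.517). Pnliprp2 had the split of Ang4, with 174 CPM in knockout replicate 1 and 17.8 and 17.3 CPM in the other knockouts, against 134, 397 and 271 CPM in the control libraries. Cd24a, a surface antigen of secretory crypt cells, measured 168, 59.7 and 58.8 CPM in knockouts, against 207, 192 and 215 CPM in controls. Clps, which encodes colipase, measured 17.8, 7.06 and 9.97 CPM in knockouts, against 22.5, 61.3 and 36.5 CPM in controls. Of 5 pancreatic genes, Prss1 and Amy2a1 were at 0 in every library. Cela1 was counted in every library, at 5.56, 8.54 and 40.9 CPM in knockouts, against 4.00, 5.12 and 3.68 CPM in controls. Cpa1 and Pnlip were at 0 in knockout replicate 1 and in every control, and reached 36.8 and 42.2 CPM in knockout replicate 3. The part of pancreatic RNA in the Clps values was not tested.

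Genes that specify or organise Paneth cells had a median log2 fold change of 0.09. Of these 12 fate genes 0 were called by edgeR and by DESeq2. At an unadjusted edgeR p under the threshold 1 was higher and 1 lower, against 9.32% and 7.09% of all genes. Atoh1, the transcription factor required for secretory cells, measured 21.4, 20.3 and 15.7 CPM in knockouts, against 19.5, 24.2 and 23.5 CPM in controls. Sox9, needed for Paneth cell formation, measured 17.2, 13.7 and 13.6 CPM in knockouts, against 16.6, 29.1 and 22.3 CPM in controls (log2 fold change −0.61, edgeR adjusted p = 0.247). The 2 of highest mean CPM were Fzd5, the Wnt receptor of Paneth maturation (log2 fold change −0.17), and Xbp1, a factor for secretory capacity (0.34).

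Of 10 genes of granule quality and autophagy, edgeR called 0, with 2 higher at an unadjusted p under the threshold, against 9.32% of all genes. DESeq2 called 2 higher, against 3.60% of all genes. Nod2, a sensor of bacterial peptidoglycan expressed in Paneth cells, measured 2.43, 3.83 and 3.28 CPM in knockouts, against 1.89, 1.33 and 1.21 CPM in controls (log2 fold change 1.11, edgeR adjusted p = 0.163). Nod2 was above the controls in all 3 knockouts but is also known from leukocytes. Xiap, an inhibitor of apoptosis with the highest mean CPM of the 10, had a log2 fold change of −0.06 (edgeR adjusted p = 0.843). Irgm1, an interferon-inducible GTPase, measured 24.2, 73.7 and 46.7 CPM in knockouts, against 14.7, 18.5 and 24.0 CPM in controls (log2 fold change 1.34, edgeR adjusted p = 0.183). T cell genes summed to 230, 748 and 353 CPM in the knockout libraries, against 201, 130 and 108 CPM in the control libraries, and their part in the Nod2 and Irgm1 values was not tested.

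**Figure D4:**
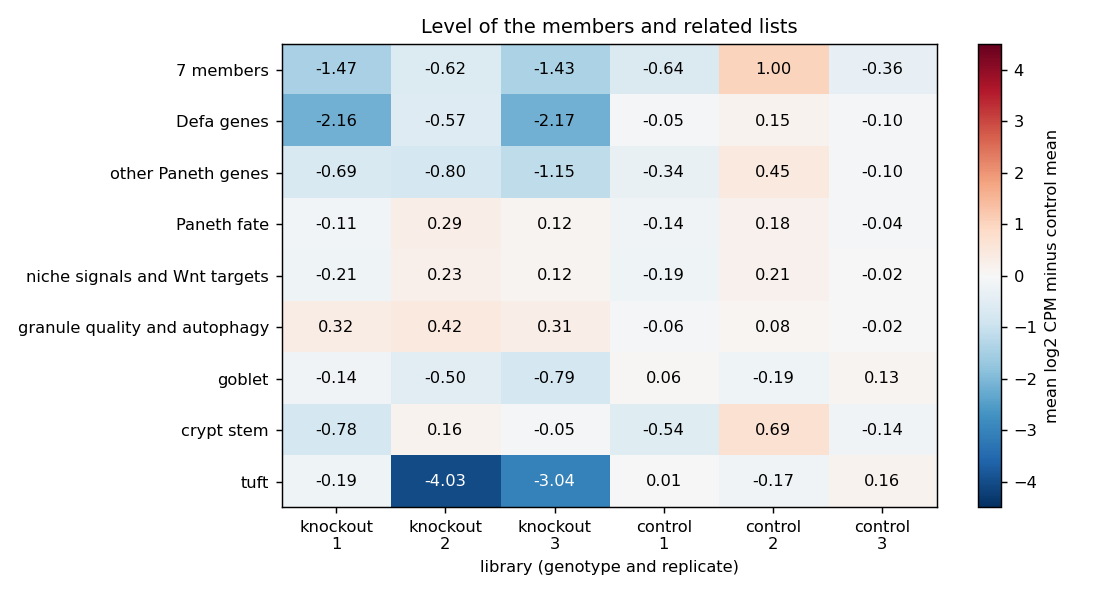
Mean log2 CPM of the 7 Paneth genes and of related gene lists in each library (rows are lists, columns are libraries), minus the mean of the controls, with blue below and red above it. The 7 genes stand at −1.47, −0.62 and −1.43 in the knockout libraries, against −0.64, 1.00 and −0.36 in the control libraries, and the fate genes stay between −0.14 and 0.29.

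Markers of other cells and of crypt content differed between libraries beside these genes. The 6 crypt stem genes summed to 239, 549 and 526 CPM in the knockout libraries, against 310, 700 and 326 CPM in the control libraries. Control replicate 2, the library highest for 6 of the 7 Paneth genes, was thus also the highest for crypt stem genes, and knockout replicate 1, the lowest for 4 of the 7, was the lowest. The 8 goblet genes summed to 18993 to 20836 CPM in knockouts and 19565 to 25946 CPM in controls, with none at 0. Genes of bowel position did not move one way. The 5 distal genes summed to 349.5, 782 and 1330.2 CPM in the knockout libraries, against 629, 934 and 871 CPM in the control libraries, with 2 positive and 3 negative log2 fold changes. Within them Fabp6, a bile acid carrier gene, measured 84.2, 312 and 818 CPM in knockouts, against 52.7, 232 and 188 CPM in controls, while Mep1a, a brush border protease gene, measured 122, 178 and 244 CPM in knockouts, against 370.3, 441 and 389 CPM in controls. The 5 proximal genes summed to 3501, 2997 and 3904 CPM in the knockout libraries, against 4995, 4249 and 4333 CPM in the control libraries, also with 2 positive and 3 negative log2 fold changes. Among them Pdx1, a transcription factor gene of the duodenum and pancreas, measured 4.30, 23.4 and 27.0 CPM in knockouts, against 1.67, 0.458 and 2.13 CPM in controls (log2 fold change 3.68, edgeR adjusted p = 0.120). EdgeR called 0 of these 10 genes. At an unadjusted p under the threshold 2 were higher and 3 lower, against 9.32% and 7.09% of all genes. DESeq2 called 1 proximal gene higher and 2 distal genes lower, against 3.60% and 1.95% of all genes. The part of crypt content, goblet cells or bowel position in the Paneth values was not tested.

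By the Pearson correlation of log2 CPM over the 6 libraries, the genes most like the mean of the 7 were searched among 9732 genes of at least 5 CPM on average. The 10 highest were Pqbp1, Defa24, Defa17, D10Jhu81e, Haus2, Zfp553, Qrich1, Nfatc3, Smc3 and Coa5, with r from 0.971 to 0.997. The 2 alpha-defensins among them had a wide range, while Pqbp1 ran only from 9.57 to 14.1 CPM. For single genes, the closest were Anapc7 for Lyz1 (r = 0.991), Defa30 for Mptx2 (0.995), Rpl4 for Itln1 (0.991), Ubxn2a for Ang4 (0.998), Cln6 for Mmp7 (0.999), Naa40 for Wnt3 (0.986) and Mrpl28 for Habp2 (0.992). These values describe likeness of shape over the 3 knockout and 3 control libraries.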

How the data were processed

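Polyadenylated RNA of intestinal epithelium was sequenced from 3 knockout and 3 control mice, and the labels also name a kit that removes ribosomal RNA. Reads went through bcl2fastq 2.17, Trim Galore, FastQC and the aligner STAR 2.5.0a on mm10, per the submitters' processing notes. Neither a read counter nor a strand setting is stated there. The deposited values were raw counts, whole numbers for each gene. Of their identifiers, 97.8% matched GENCODE M21, all with the same coordinates, and exon lengths came from there.

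From these counts, edgeR 4.0.16 (R 4.3.3) was fitted with trimmed-mean scaling, its default filter (minimum count 10), the two-sided quasi-likelihood test and genotype as the sole term. P-values were adjusted by Benjamini-Hochberg over all 15068 genes at a threshold of 0.05. CPM divides by the scaled library total, log2 CPM adds a prior count of 2, and the SE is the log2 fold change over the square root of F. The precision of a value is limited by depth (18972906 to 26687856 counts per library) and by 3 libraries per group. Gene fits were tested on simulated data, where edgeR recovered 23% of 2-fold and 76% of 4-fold changes at the threshold. Of its 102 calls there, 3 were false. DESeq2 1.42.0 and limma-voom (limma 3.58.1) were alternatives, as were scaling, filters, covariates and leaving out each library. Groups and numbers came from the titles. The titles give replicate numbers and name no pair or batch, and the replicate block was planned as an alternative. Same-numbered libraries deviated together weakly (r = 0.117, 0.119 and 0.149, against −0.143 to 0.00929 for other pairs). The deviations were taken from the mean of each group, so these r values are not independent. Libraries of one group differed beyond sampling noise in every pair (lowest chi-square per gene 23.8).

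The genes and lists were chosen with earlier results of these data known. Named were the 7 genes, their relatives, called genes or the 2 of highest mean CPM in each Paneth list, and the genes most alike in pattern. Other listed genes (Lgr5, Dll4, AY761184, Kit, Atoh1, Sox9, Nod2, Cd24a, Clps, Retnlb and Muc2) were named after their values were seen. So were Fabp6, Mep1a, Pdx1, Mertk, Vil1, Mmp14, Mmp28, Defa21, Defa29 and the pancreatic genes.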

Additional observations from a re-analysis of the deposited data

How the results depend on the processing

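The count of Paneth genes called lower, 0 of 7 by edgeR with all libraries, was 1 (Mptx2) with no filter and with DESeq2, and 2 (Mptx2 and Ang4) without knockout replicate 1. Leaving out 1 library at a time gave between 0 and 2, and no alternative called any of the 7 higher. The count over all genes, 9 by edgeR, was 16 with library totals, 284 with no filter, 836 with DESeq2, 5 with limma-voom, 0 with the replicate block and 4 with the sex of the series text. It ran from 0 to 2700 when 1 library was left out, being 0 with any control or the third knockout left out, 13 without knockout replicate 2 and 2700 without knockout replicate 1. The median log2 fold change of the 7 genes, −1.18, ran from −1.52 to −0.013 when 1 library was left out, the last without control replicate 2. The sign of Wnt3 turned to −0.024 without knockout replicate 2, −0.0069 without control replicate 1 and −0.10 without control replicate 3, within a range of −0.10 to 0.91 over single libraries left out. That of Habp2 turned to 0.11 without control replicate 2, within −0.91 to 0.11. The replicate block gave log2 fold changes of −2.98 for Mptx2 and −3.81 for Ang4 and changed no call among the 7. Of 105 values for single genes under the 15 alternatives, 97 kept their sign and their side of the threshold. As 0 of the 7 were called with all libraries, keeping that side meant staying uncalled, and the size of a change was not counted. The 97 include Lyz1 at −0.013 without control replicate 2 and Mmp7 at 0.05 with sex by Xist and Ddx3y. The cause of these shifts was not tested. Sex by Xist and Ddx3y was added after the data were seen. Depth limits Wnt3, whose libraries held 21 to 77 counts.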
